A study of Mus musculus with 34 samples.

Results

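Polycomb repressive complex genes were examined in cortex at 15 weeks of age. The mice were bred from R6/2 males, an HD mouse model, and females heterozygous for an Hdac4 knock-out allele. The 35 genes were named by symbol and covered the core and accessory subunits of Polycomb repressive complex 2 (PRC2), the subunits of Polycomb repressive complex 1 (PRC1), and enzymes that remove the marks of both. Each gene was represented by 1 probe set, the one whose mean across the 34 arrays was highest, called the brightest here, and 34 of the 35 genes were found among 18193 genes measured. Rybp, a subunit of non-canonical PRC1, lay on probe sets that also carry the symbol of a pseudogene and was left out. The 34 genes had 92 probe sets, of which 5 genes had 1 and no gene more than 6.

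The 34 arrays came from 4 genotypes, bred on a (CBA × C57BL/6) background. WT mice (n = 8) carried neither mutation. Hdac4HET mice (n = 8) carried 1 targeted and 1 intact Hdac4 allele, R6/2 mice (n = 9) carried a transgene for the mutant exon 1 of HTT with both Hdac4 alleles intact, and Dble::R6/2 mice (n = 9) carried the transgene and 1 targeted Hdac4 allele. Because no genotype lacked Hdac4 altogether, every comparison of the allele is between 1 and 2 intact copies. The paper states that the targeted allele was made in a different mouse strain. It adds that some DNA of that strain, linked to Hdac4, inevitably stays with the allele after backcrossing. Hdac4HET and Dble::R6/2 mice therefore differ from WT and R6/2 in this linked DNA too, and its part in the expression values was not tested. The paper did compare R6/2 mice with and without this linked DNA, all with intact Hdac4. It reports that the aggregate load in cortex was not modified. Values are log2 expression levels, and a change is a difference of group means with its SE from limma. A gene is said to have risen, fallen or been called where the p-value, adjusted over all 45037 probe sets by the method of Benjamini and Hochberg, was 0.05 or less. The number of arrays limits the precision, and the p-values set the difference of group means against the spread between mice.

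Polycomb group proteins keep developmental genes silent in cells that do not need them. PRC2 adds methyl groups to a lysine of histone H3 (the H3K27 mark) through EZH1 or EZH2, held in place by EED and SUZ12, and PRC1 attaches ubiquitin to histone H2A through RING1 or RNF2. Canonical PRC1 finds its targets through a CBX protein that reads the PRC2 mark, whereas non-canonical PRC1 carries RYBP or YAF2 in its place. In adult neurons EZH1 is the usual catalytic subunit and EZH2 is better known from dividing progenitors.

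Within a genotype no pair of arrays correlated below 0.973, and array medians lay between 5.44 and 5.52. The targeted gene, Hdac4, read 7.47 to 7.74 in Hdac4HET and 7.81 to 8.20 in WT on its brightest probe set, which left 71.5% of the WT level (log2 change -0.48 ± 0.06, limma adjusted p = 0.0036). On the R6/2 background this probe set read 7.32 to 7.80 with the targeted allele and 7.54 to 8.14 without it, and the change of -0.33 ± 0.08 did not pass (adjusted p = 0.691). The second brightest fell to 65.5% of R6/2 (adjusted p = 0.00033), with 7.01 to 7.56 in Dble::R6/2 and 7.67 to 7.99 in R6/2. It read 7.16 to 7.50 in Hdac4HET and 7.54 to 8.13 in WT, so neither pair overlapped on it. The dimmest read 94.6% of R6/2 in Dble::R6/2 (adjusted p = 0.945). R6/2 replicate 2 had a mean over 7 epidermal markers of 7.35, against 5.63 to 6.07 on the other arrays. Prl, a pituitary hormone gene, exceeded a log2 value of 8 on 4 arrays, of which 3 were WT and 1 was Hdac4HET. The level of Xist, a transcript of the inactive X chromosome, went against the labelled sex on 15 of the 34 arrays. The 19 arrays where they matched were 3 WT, 3 Hdac4HET, 8 R6/2 and 5 Dble::R6/2. Whether the sex labels or the sample labels are at fault on the 15 cannot be told apart here, and every comparison rests on the sample labels. Counts of called genes are given without the arrays that stand apart, and values of single genes where a call or a size changed.

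The promoters of the genes with the largest called changes between R6/2 and WT are shown first, since the results below turn on them. They are Cbx7, which encodes a CBX reader and rose, Phf1, which encodes a PRC2 accessory subunit and rose, and Bcor, which encodes a corepressor of non-canonical PRC1 and fell. Each run gives the 250 bases before the transcription start annotated by RefSeq, 5′ to 3′ on the gene's own strand in GRCm38.p6, with CG dinucleotides in capitals. Kdm6b, which was among the largest changes too, has no entry in the promoter table used here.
Cbx7, chr15:79932647-79932896, minus strand: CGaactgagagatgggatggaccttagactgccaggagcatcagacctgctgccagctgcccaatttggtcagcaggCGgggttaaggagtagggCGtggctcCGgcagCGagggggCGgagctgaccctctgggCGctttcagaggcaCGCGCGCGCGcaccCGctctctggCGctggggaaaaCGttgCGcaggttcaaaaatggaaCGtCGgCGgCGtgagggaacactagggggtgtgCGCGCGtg
Phf1, chr17:26932877-26933126, plus strand: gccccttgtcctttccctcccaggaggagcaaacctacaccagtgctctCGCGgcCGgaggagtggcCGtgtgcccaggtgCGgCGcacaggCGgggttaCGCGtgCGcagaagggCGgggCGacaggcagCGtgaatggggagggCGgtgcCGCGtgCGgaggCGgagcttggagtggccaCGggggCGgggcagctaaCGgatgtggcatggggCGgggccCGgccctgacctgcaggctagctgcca
Bcor, chrX:12160347-12160596, minus strand, the first of 2 annotated starts: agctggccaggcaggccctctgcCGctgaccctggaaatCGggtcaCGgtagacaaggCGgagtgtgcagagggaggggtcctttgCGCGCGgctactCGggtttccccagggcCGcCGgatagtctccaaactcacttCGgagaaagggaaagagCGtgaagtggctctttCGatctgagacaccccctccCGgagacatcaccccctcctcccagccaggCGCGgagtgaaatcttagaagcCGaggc
The run before Cbx7 holds 23 CG dinucleotides, that before Phf1 holds 23 and that before Bcor holds 17. Over the 30 genes with an entry, 43 windows of 300 bases had a median GC content of 64.3% and a median of 23 CG dinucleotides, against 52.7% and 7 over all 32851 windows in the table. The letters CCAAT, searched on both strands, were in a window of 13 of the 30 genes (43.3%) and of 41.1% of all genes. They lay 190 bases before the Cbx7 start and were in neither of the other windows printed. The remaining letters searched (TGACGTCA, GCGCATGC, TTTGGCGC, TTTCCCGC and AAGATGGCG) were each in windows of 1 or 2 of the 30 genes and of 0.585% to 3.05% of all genes.

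In R6/2 cortex, Polycomb genes changed more often upwards than downwards. Against WT, 16 of the 34 genes rose and 3 fell, with a median change of 0.20. In whole cortex, fewer cells of a type and less RNA per cell cannot be told apart. Of all 18193 genes 32% passed the same test, with 20.2% higher and 11.8% lower and a median change of 0.02. Among the 10431 genes with a mean level of 6 or more, where 32 of the 34 lie, the share called was 45.8%, with 29.2% higher, 16.6% lower and a median of 0.06. For the 34 genes the shares were 55.9% called, 47.1% higher and 8.82% lower, so the share of rises lay above that of both backgrounds and the share of falls below it. The groups did not overlap for 9 of the genes, 8 higher and 1 lower, against 10.1% of all genes. Leaving out R6/2 replicate 2 gave 16 rises and 3 falls as well, with 11 genes not overlapping and 34.1% of all genes called. Leaving out the 4 arrays high in Prl gave 12 rises and 2 falls, with 12 genes not overlapping and 22.4% of all genes called. Leaving out the 15 arrays whose Xist went against the sex label gave 12 rises and 1 fall, again with 12 genes not overlapping, and 22.2% of all genes called. Ezh1, Aebp2, Pcgf2, Kdm2b, Cbx6 and Yaf2 were the genes no longer called. Groups of fewer arrays separate more easily, and the share of all genes not overlapping was not counted for the reduced sets. Their counts of genes not overlapping therefore cannot be set against those of the full set.

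The transgene was also compared on the Hdac4HET background, where Dble::R6/2 and Hdac4HET mice share no array with the pair above. There 12 genes rose and 3 fell (44.1%). Of all genes 30% were called there, 18.3% higher and 11.7% lower, and of those with a mean of 6 or more 42.7%, 26.6% higher and 16.2% lower. The median change of the 34 genes was 0.14. Groups did not overlap for 10 genes, against 8.77% of all genes. Without the arrays high in Prl 12 rose and 3 fell, where 28.5% of all genes were called. Without the arrays whose Xist went against the sex label 6 were called, where 10.7% of all genes were. They were Phf1, Bmi1, Cbx2, Cbx7 and Cbx8, which rose, and Bcor, which fell. In both comparisons 12 genes were called, each in the same direction. Eed, Suz12, Rbbp4, Aebp2, Phf1, Rnf2, Bmi1, Cbx2, Cbx7 and Cbx8 rose, and Cbx6 and Bcor fell. Ezh1, Jarid2, Pcgf2, Yaf2, Kdm2b, Asxl1 and Kdm6b were called against WT alone, Phc1, Phc2 and Bap1 on the Hdac4HET background alone, and 12 genes in neither. That a gene was called on one background alone does not show that the backgrounds differ. The interaction of transgene and allele passed for 0 of the 34 genes (limma), and for 0% of all genes and 0.00222% of all probe sets. At an unadjusted p under 0.05 there were 7 of the 34, and the share of all genes at that p was not counted. The sign was the same on both backgrounds for 26 of the 34 genes (76.5%), for 75% of all genes and for 82.5% of those with a mean of 6 or more.

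**Figure D1:**
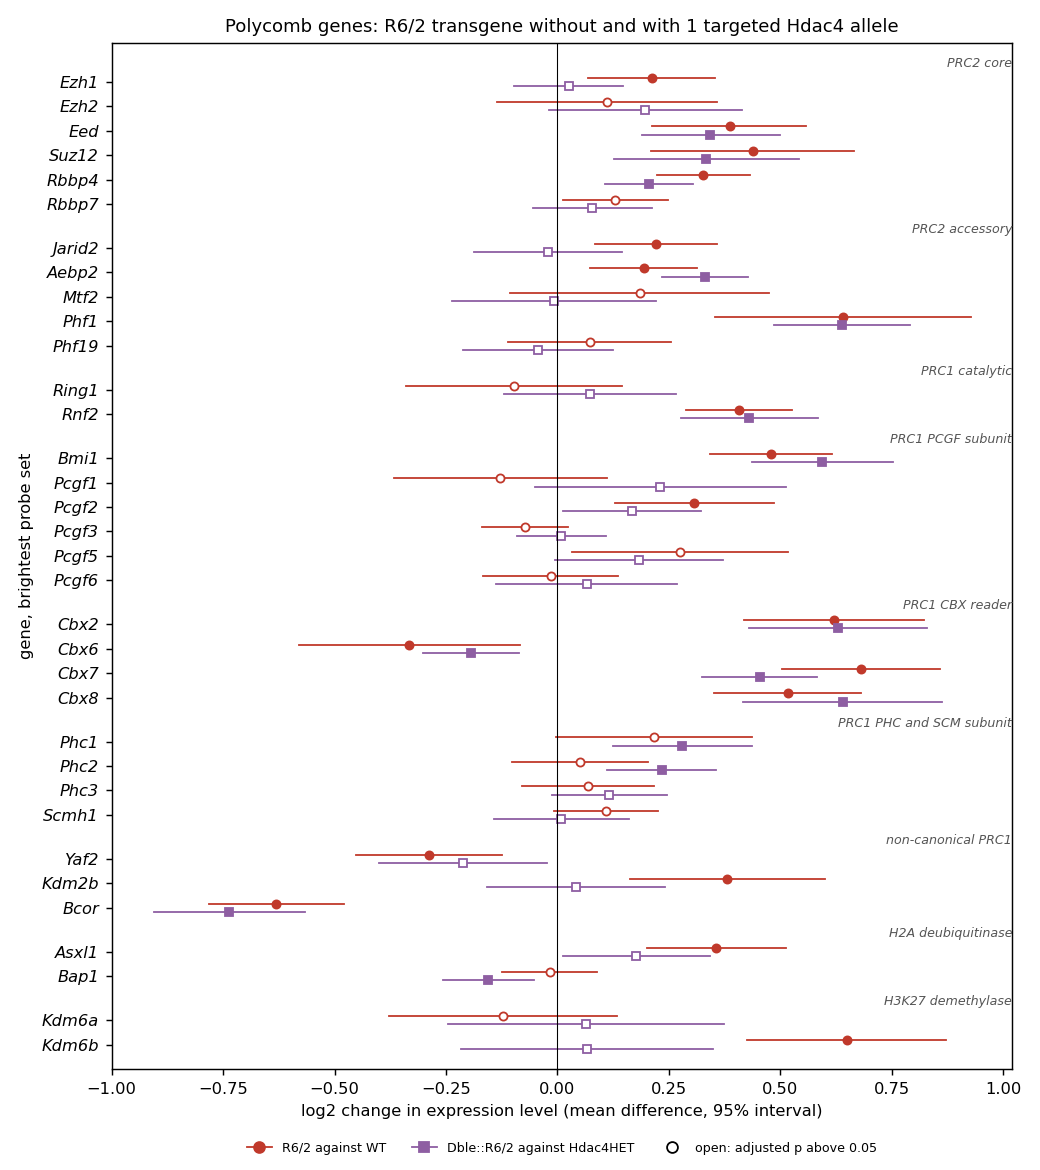
Log2 change with the R6/2 transgene for the brightest probe set of 34 Polycomb genes, grouped by role, as the mean difference with its 95% interval (circles, R6/2 against WT; squares, Dble::R6/2 against Hdac4HET; open, adjusted p above 0.05). Of the filled symbols, 16 circles and 12 squares lie to the right of 0 and 3 of each to the left.

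Among the 6 PRC2 core genes, 4 rose against WT and 0 fell, and 3 rose on the Hdac4HET background. Eed encodes the subunit that binds the methylated histone. It read 7.27 to 7.74 in WT (median 7.64), 7.37 to 7.94 in Hdac4HET (7.60), 7.80 to 8.42 in R6/2 (7.98) and 7.74 to 8.17 in Dble::R6/2 (7.97). Every R6/2 array lay above every WT array, while on the Hdac4HET background the groups overlapped. The change was 0.39 ± 0.08 against WT (limma adjusted p = 0.00154) and 0.34 ± 0.07 against Hdac4HET (adjusted p = 0.00171). The second Eed probe set was not called on either background, but without the arrays high in Prl it rose against Hdac4HET by 0.30 (adjusted p = 0.0412). Suz12, which encodes the scaffold of the complex, read 8.40 to 9.20 in WT (median 8.91), 8.69 to 9.24 in Hdac4HET (9.07), 9.03 to 9.68 in R6/2 (9.30) and 8.99 to 9.77 in Dble::R6/2 (9.41). The upper arrays of the carriers lay beyond the controls and the lower ones within them. Suz12 changed by 0.44 ± 0.11 (adjusted p = 0.00516) and 0.33 ± 0.10 (adjusted p = 0.018). Its other 5 probe sets differed by 0.01 to 0.52 from WT, and of these only the dimmest passed (adjusted p = 0.045). Without R6/2 replicate 2 the second dimmest passed too (0.52, adjusted p = 0.0118). The dimmest did not pass once the arrays high in Prl were left out (0.545, adjusted p = 0.102).

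Rbbp4 encodes a histone-binding subunit that PRC2 shares with other chromatin complexes. Its brightest probe set read 11.26 to 11.43 in WT (median 11.40), 11.38 to 11.50 in Hdac4HET (11.46), 11.59 to 11.82 in R6/2 (11.69) and 11.51 to 11.80 in Dble::R6/2 (11.67). On both backgrounds the carriers lay wholly above their controls. The changes were small, 0.33 ± 0.05 (adjusted p = 6.19e-05) and 0.20 ± 0.05 (adjusted p = 0.00283), and they were seen on this probe set alone. Of its other probe sets 2 differed by -0.06 and 0.00 from WT, and the dimmest fell by 0.97 ± 0.22 (adjusted p = 0.00218). That probe set read 6.77 to 8.13 in WT and 5.43 to 7.05 in R6/2, and it was also lower in Hdac4HET than in WT (-0.77 ± 0.20, adjusted p = 0.0436, and -0.68 without the arrays high in Prl, adjusted p = 0.222). The direction of Rbbp4 therefore depended on the probe set, and the mean of all 4 gave -0.175 (adjusted p = 0.128).

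The catalytic subunits of PRC2 differed in what they showed. Ezh1 read 8.55 to 8.93 in WT (median 8.69), 8.61 to 8.91 in Hdac4HET (8.80), 8.79 to 9.11 in R6/2 (8.91) and 8.64 to 8.99 in Dble::R6/2 (8.80). The R6/2 arrays reached higher than the others, by 0.21 ± 0.07 against WT (adjusted p = 0.0261), and Dble::R6/2 did not differ measurably from Hdac4HET (0.02 ± 0.06, 95% interval -0.10 to 0.15, adjusted p = 0.835). The rise against WT did not pass without the arrays high in Prl (0.20, adjusted p = 0.104). Dimmer probe sets of Ezh1 rose on both backgrounds. The third brightest changed by 0.43 ± 0.16 (adjusted p = 0.0491, and 0.191 without the arrays high in Prl) and 0.57 ± 0.09 (adjusted p = 9.22e-05), and the dimmest by 0.81 ± 0.13 (adjusted p = 8.65e-05) and 0.93 ± 0.11 (adjusted p = 3.58e-06). The brightest probe set of Ezh1 thus gave the smallest change of the 4.

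Ezh2 has 1 probe set, which read 5.54 to 6.09 in WT (median 5.92), 5.45 to 6.06 in Hdac4HET (5.80), 5.57 to 6.62 in R6/2 (5.94) and 5.62 to 6.19 in Dble::R6/2 (6.01). The 4 genotypes covered nearly the same range, and the highest value came from R6/2 replicate 2. Its changes of 0.11 ± 0.12 (95% interval -0.14 to 0.36, adjusted p = 0.561) and 0.20 ± 0.10 (-0.02 to 0.41, adjusted p = 0.203) did not pass. Without R6/2 replicate 2 the change against WT was 0.03. Rbbp7, the X-linked relative of Rbbp4, differed by 0.13 ± 0.06 (adjusted p = 0.101) and 0.08 ± 0.06 (adjusted p = 0.456). Its second probe set had the opposite sign and was not called either, at -0.11 ± 0.05 (adjusted p = 0.0886) and -0.02 ± 0.06 (adjusted p = 0.862).

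Accessory subunits decide where PRC2 goes and how active it is. Of 5 measured, 3 rose against WT and 2 rose on the Hdac4HET background. Phf1, which encodes a Polycomb-like protein that brings PRC2 to chromatin, had the largest change among them. It read 7.29 to 7.84 in WT (median 7.58), 7.66 to 7.90 in Hdac4HET (7.76), 7.32 to 8.56 in R6/2 (8.37) and 8.00 to 8.60 in Dble::R6/2 (8.46). All carriers but R6/2 replicate 2 lay above all controls of both genotypes. The change was 0.64 ± 0.14 against WT, or 156% of the WT level (adjusted p = 0.0016), and 0.64 ± 0.07 against Hdac4HET (adjusted p = 2.42e-06). Without R6/2 replicate 2 it was 0.755 ± 0.09 against WT (adjusted p = 4.13e-06) and the groups no longer overlapped.

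Aebp2, whose product stabilises PRC2 on DNA, read 9.00 to 9.17 in WT (median 9.09), 8.95 to 9.15 in Hdac4HET (9.04), 9.14 to 9.50 in R6/2 (9.33) and 9.29 to 9.48 in Dble::R6/2 (9.38). Dble::R6/2 lay wholly above Hdac4HET, whereas R6/2 reached down into the WT range. It rose by 0.19 ± 0.06 (adjusted p = 0.017) and 0.33 ± 0.05 (adjusted p = 2.31e-05). The rise against WT did not pass without the arrays high in Prl (0.20, adjusted p = 0.0617). None of its dimmer probe sets was called on either background. They differed from WT by -0.22 to 0.165, and the mean of all its probe sets differed by 0.01. Without R6/2 replicate 2 a dimmer Aebp2 probe set was called lower than WT, so the direction of Aebp2 against WT depended on the probe set. Mtf2 and Phf19, the other Polycomb-like genes, were not called on their brightest probe sets, with changes from -0.04 to 0.18 over both backgrounds. Of the dimmer Mtf2 probe sets 1 rose against WT (0.25 ± 0.08, adjusted p = 0.0327) and another fell (-0.40 ± 0.11, adjusted p = 0.0078), neither of which passed without the arrays high in Prl (adjusted p = 0.0717 and 0.0944), so no direction can be given for the gene.

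In PRC1, the ubiquitin ligase gene Rnf2 rose and Ring1 did not pass the test. Rnf2 read 8.21 to 8.48 in WT (median 8.33), 8.09 to 8.54 in Hdac4HET (8.28), 8.56 to 8.95 in R6/2 (8.74) and 8.56 to 8.89 in Dble::R6/2 (8.78). Carriers lay above controls without overlap on both backgrounds. The changes were 0.41 ± 0.06 (133% of WT, adjusted p = 2.81e-05) and 0.43 ± 0.07 (135% of Hdac4HET, adjusted p = 0.000217). Its 4 dimmer probe sets differed from WT by -0.15 to 0.03, none passing, and the mean of all 5 differed by 0.04 (adjusted p = 0.589). Ring1, with 1 probe set, read 6.95 to 7.57 in WT (median 7.30), 6.83 to 7.54 in Hdac4HET (7.04), 6.58 to 7.46 in R6/2 (7.20) and 6.85 to 7.41 in Dble::R6/2 (7.18). The ranges of the 4 genotypes overlapped widely, and the changes of -0.10 ± 0.12 (95% interval -0.34 to 0.14, adjusted p = 0.608) and 0.07 ± 0.09 (-0.12 to 0.27, adjusted p = 0.663) leave room for differences of either sign.

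A PCGF protein pairs with the ligase and sets the kind of PRC1. Bmi1, the PCGF gene of canonical PRC1 known from stem cell renewal, read 9.17 to 9.42 in WT (median 9.30), 9.15 to 9.36 in Hdac4HET (9.25), 9.58 to 10.03 in R6/2 (9.72) and 9.49 to 10.05 in Dble::R6/2 (9.92). The lowest carrier lay above the highest control on both backgrounds. Bmi1 rose by 0.48 ± 0.07 (adjusted p = 2.12e-05) and 0.59 ± 0.08 (adjusted p = 8.83e-06). Its second probe set also rose without overlap, by 0.67 on each background (adjusted p = 3.26e-06 and 1.04e-06). Pcgf2, the closest relative of Bmi1, read 5.97 to 6.49 in WT (median 6.24), 6.17 to 6.42 in Hdac4HET (6.36), 6.23 to 6.82 in R6/2 (6.62) and 6.30 to 6.81 in Dble::R6/2 (6.45). Carriers reached higher than controls but overlapped them. It rose against WT by 0.31 ± 0.09 (adjusted p = 0.0107), a call lost without the arrays high in Prl (0.29, adjusted p = 0.0626), and differed by 0.17 ± 0.07 on the Hdac4HET background (adjusted p = 0.118). Pcgf1, Pcgf3, Pcgf5 and Pcgf6, which belong to the non-canonical complexes, were not called on either background on their brightest probe sets, with changes from -0.13 to 0.27. The second probe set of Pcgf6 rose against WT by 0.36 ± 0.10 (adjusted p = 0.0112). The second of Pcgf3 rose on the Hdac4HET background by 0.21 ± 0.07 (adjusted p = 0.0413), while the third of Pcgf5 fell there by 0.26 (adjusted p = 0.0107). Leaving out the arrays high in Prl ended the calls of Pcgf6 (adjusted p = 0.0633) and Pcgf3 (adjusted p = 0.0511).

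The CBX readers were the group in which every gene was called on both backgrounds, with Cbx2, Cbx7 and Cbx8 higher and Cbx6 lower. Cbx7 read 7.50 to 8.11 in WT (median 7.81), 7.87 to 8.26 in Hdac4HET (8.03), 8.29 to 8.74 in R6/2 (8.53) and 8.35 to 8.69 in Dble::R6/2 (8.52). All 18 carriers lay above all 16 controls. Cbx7 rose by 0.68 ± 0.08 against WT, to 160% of its level (adjusted p = 8.34e-06), and by 0.45 ± 0.06 against Hdac4HET, to 137% (adjusted p = 1.82e-05). The difference of these changes was -0.23 ± 0.10 (unadjusted p = 0.0361, adjusted p = 0.47).

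Cbx2 read 5.32 to 5.95 in WT (median 5.75), 5.30 to 5.76 in Hdac4HET (5.66), 6.08 to 6.60 in R6/2 (6.26) and 5.84 to 6.55 in Dble::R6/2 (6.22). Each carrier group lay above its own controls, and the lowest Dble::R6/2 array lay within the WT range. The rise was 0.62 ± 0.10 (adjusted p = 8.74e-05) and 0.63 ± 0.10 (adjusted p = 5.88e-05). Cbx8 behaved alike, with 5.55 to 5.98 in WT (median 5.68), 5.11 to 5.93 in Hdac4HET (5.74), 6.03 to 6.54 in R6/2 (6.21) and 6.09 to 6.53 in Dble::R6/2 (6.26). No carrier array overlapped a control array. Cbx8 rose by 0.52 ± 0.08 (adjusted p = 6.66e-05) and 0.64 ± 0.11 (adjusted p = 0.00016). The second probe sets of Cbx2 and Cbx8 and the 2 dimmer ones of Cbx7 were not called against WT.

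Cbx6, the CBX gene that fell, read 11.02 to 11.27 in WT (median 11.17), 11.06 to 11.32 in Hdac4HET (11.12), 9.95 to 11.09 in R6/2 (10.93) and 10.84 to 11.05 in Dble::R6/2 (10.98). The lowest value was that of R6/2 replicate 2, and the other R6/2 arrays began at 10.8. The change against WT was -0.33 ± 0.12 (adjusted p = 0.0429), and -0.22 ± 0.05 without that array (adjusted p = 0.00414). Against Hdac4HET it was -0.195 ± 0.05 without overlap (adjusted p = 0.00849). The call against WT was lost under 17 of 27 other settings, with adjusted p up to 0.118, and the second probe set fell on both backgrounds (-0.35, adjusted p = 0.0143, and -0.27, adjusted p = 0.00493).

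**Figure D2:**
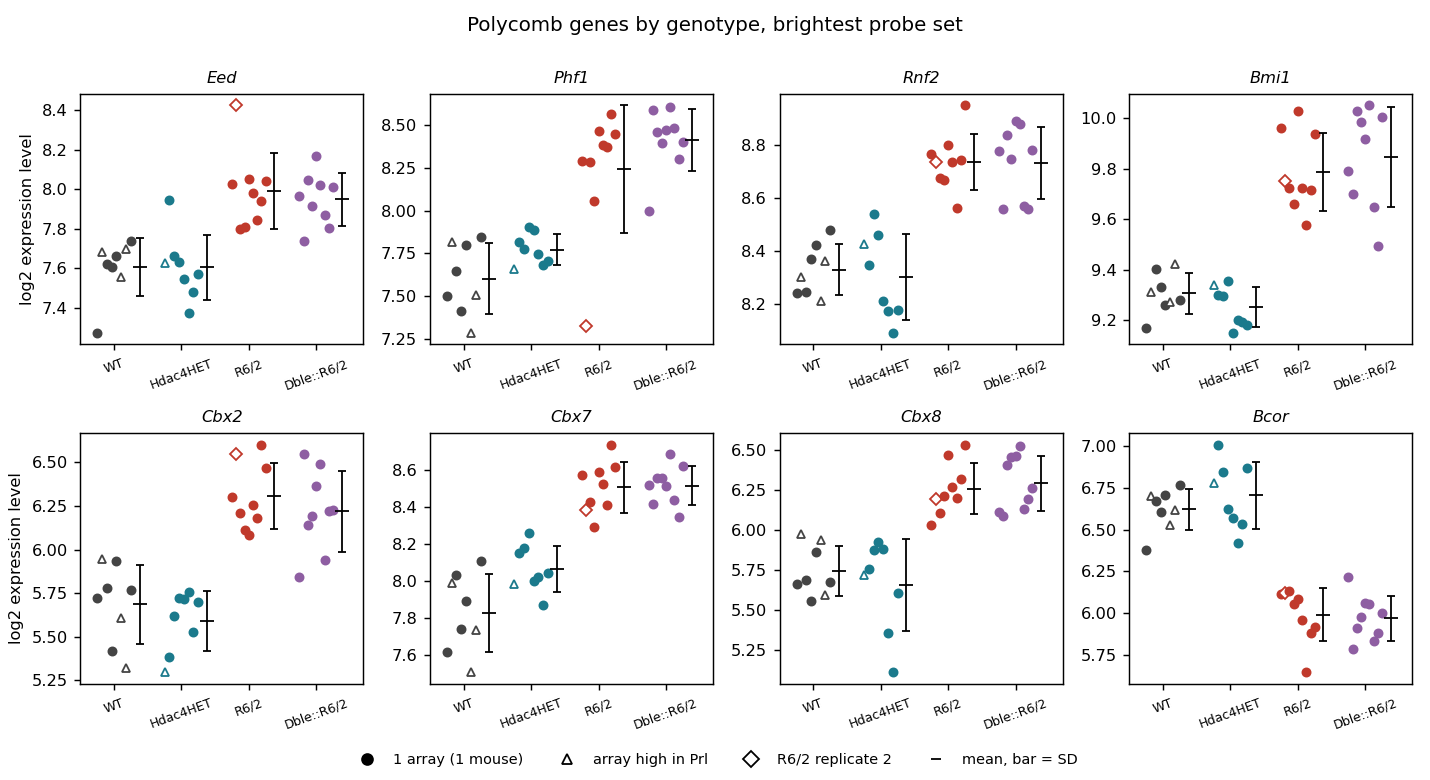
Log2 expression level (vertical axes) of 8 Polycomb genes on the brightest probe set in each of 34 mice, by genotype, with the mean and SD beside each group. Open triangles mark the 4 arrays high in Prl and open diamonds R6/2 replicate 2. Apart from that array in Phf1, R6/2 lies above WT in the 7 genes that rose and below it in Bcor.

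The polyhomeotic genes, whose products let PRC1 assemble into larger bodies, were not called against WT on their brightest probe sets. Phc1 read 7.90 to 8.28 in WT (median 8.20), 7.80 to 8.25 in Hdac4HET (8.02), 7.93 to 8.77 in R6/2 (8.38) and 8.04 to 8.50 in Dble::R6/2 (8.36). The carriers spread upwards from the range of the controls. The change against WT of 0.22 ± 0.10 did not pass (adjusted p = 0.145), whereas that against Hdac4HET did (0.28 ± 0.07, adjusted p = 0.0089). Phc2 read 8.95 to 9.47 in WT (median 9.10), 8.95 to 9.24 in Hdac4HET (9.12), 9.03 to 9.41 in R6/2 (9.17) and 9.18 to 9.48 in Dble::R6/2 (9.34). R6/2 lay within the WT range. Phc2 differed by 0.05 ± 0.07 from WT (adjusted p = 0.688) and rose by 0.23 ± 0.06 from Hdac4HET (adjusted p = 0.00566), but its second probe set rose on both backgrounds (0.43, adjusted p = 0.00224, and 0.225, adjusted p = 0.0173). Phc3 and Scmh1, an SCM subunit, were not called, with changes from 0.01 to 0.12, though the second Scmh1 probe set rose against WT (0.95 ± 0.26, adjusted p = 0.0101). That probe set spread from 4.70 to 7.30 within WT alone.

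Bcor showed the largest fall of the set. Its product, with KDM2B, forms the non-canonical PRC1 that sits at CG-rich promoters. Bcor read 6.38 to 6.77 in WT (median 6.64), 6.42 to 7.01 in Hdac4HET (6.70), 5.65 to 6.13 in R6/2 (6.05) and 5.78 to 6.22 in Dble::R6/2 (5.98). All 18 carriers lay below all 16 controls. Against WT it fell by 0.63 ± 0.07, which left 64.6% (adjusted p = 3.08e-06), and against Hdac4HET by 0.74 ± 0.08, which left 60% (adjusted p = 1.52e-06). Both of its other probe sets fell as well, by 0.65 and 0.28 against WT (adjusted p = 0.000438 and 0.00524) and by 0.61 and 0.44 against Hdac4HET (adjusted p = 0.00264 and 0.000995). Bcor is X-linked. On arrays low in Xist it read 6.62 ± 0.21 in WT (SD, n = 3), 6.75 ± 0.215 in Hdac4HET (n = 6), 6.02 ± 0.21 in R6/2 (n = 5) and 5.93 ± 0.10 in Dble::R6/2 (n = 6). On arrays high in Xist it read 6.62 ± 0.07 (n = 5), 6.58 ± 0.07 (n = 2), 5.96 ± 0.09 (n = 4) and 6.04 ± 0.19 (n = 3), so carriers averaged lower than controls in both sets of arrays.

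Kdm2b, whose product binds unmethylated CG dinucleotides, read 7.23 to 7.79 in WT (median 7.58), 7.54 to 7.86 in Hdac4HET (7.75), 7.69 to 8.50 in R6/2 (7.82) and 7.34 to 8.17 in Dble::R6/2 (7.75). R6/2 began near the top of the WT range, and its highest array was replicate 2. Kdm2b rose by 0.38 ± 0.10 against WT (adjusted p = 0.00977), by 0.31 ± 0.08 without that array (adjusted p = 0.00704), and differed by 0.04 ± 0.10 from Hdac4HET (95% interval -0.16 to 0.24, not called). Yaf2, the relative of Rybp, fell against WT by 0.29 ± 0.08 (adjusted p = 0.00889). Against Hdac4HET its change was -0.21 ± 0.09 (adjusted p = 0.103).

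Bap1 encodes the enzyme that takes ubiquitin off histone H2A, and Asxl1 its cofactor. Bap1 read 10.26 to 10.52 in WT (median 10.39), 10.39 to 10.56 in Hdac4HET (10.47), 10.24 to 10.53 in R6/2 (10.37) and 10.15 to 10.40 in Dble::R6/2 (10.29). The genotypes lay close together, with Dble::R6/2 lowest. It differed by -0.02 ± 0.05 from WT (adjusted p = 0.86) and fell by 0.155 ± 0.05 from Hdac4HET (adjusted p = 0.0248), as did its second probe set (-0.18, adjusted p = 0.0145). Asxl1 rose against WT by 0.36 ± 0.07 (adjusted p = 0.00127). Its change against Hdac4HET of 0.18 ± 0.08 did not pass (adjusted p = 0.124). On the second probe set Asxl1 rose by 0.74 ± 0.09 and 0.70 ± 0.11, without overlap on either background (adjusted p = 1.1e-05 and 6.75e-05), and on the dimmest it fell by 0.16 against WT (adjusted p = 0.0384). That fall did not pass without R6/2 replicate 2 (-0.16, adjusted p = 0.0505) or without the arrays high in Prl (-0.15, adjusted p = 0.154).

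The demethylases KDM6A and KDM6B remove the PRC2 mark. Kdm6b rose against WT by 0.65 ± 0.11, to 157% of the WT level without overlap (adjusted p = 0.000147), and differed by 0.07 ± 0.14 from Hdac4HET (95% interval -0.22 to 0.35, adjusted p = 0.809). Its dimmer probe sets were not called on either background, but the second rose against WT by 0.37 ± 0.09 without R6/2 replicate 2 (adjusted p = 0.00386), where it differed by 0.21 with that array (adjusted p = 0.453). Kdm6a, on the X chromosome, was not called, with changes of -0.12 ± 0.12 (adjusted p = 0.53) and 0.06 ± 0.15 (adjusted p = 0.833). Its level varied with Xist within each genotype. On arrays low in Xist it averaged 7.81 in WT (n = 3), 7.79 in Hdac4HET (n = 6), 7.81 in R6/2 (n = 5) and 7.76 in Dble::R6/2 (n = 6). On arrays high in Xist the means were 8.12 (n = 5), 8.30 (n = 2), 7.97 (n = 4) and 8.43 (n = 3). The higher level with Xist in all 4 genotypes is a description of these arrays, with no test.

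Between Hdac4HET and WT, 4 of the 34 genes were called (11.8%). Of all genes 3.17% were called (1.46% higher and 1.71% lower). Of those with a mean of 6 or more 4.9% were called (2.27% higher and 2.63% lower). Of the 34, 10 were at an unadjusted p under 0.05 (limma). The share of all genes at that p was not counted, so the 10 have no background. Jarid2, Asxl1 and Kdm6b rose and Yaf2 fell, with a median change of -0.01 over the 34 genes and 0 genes without overlap (0.357% of all genes). The same 4 genes were called in the same direction in R6/2 against WT, but both comparisons use the same 8 WT arrays and so are not independent of each other. All 4 calls were lost without the arrays high in Prl, when 0.0055% of all genes were called, without the arrays whose Xist went against the sex label, with 0.044% called, and when Xist-based sex entered the fit, with 0.0385% called.

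Jarid2, whose product recruits PRC2, read 8.38 to 8.69 in WT (median 8.47), 8.63 to 9.14 in Hdac4HET (8.80), 8.44 to 8.88 in R6/2 (8.75) and 8.62 to 9.07 in Dble::R6/2 (8.83). WT was the lowest of the 4 groups, and 7 of 8 Hdac4HET arrays lay above every WT array. Jarid2 rose by 0.36 ± 0.07 (adjusted p = 0.0207) with the targeted allele and by 0.22 ± 0.07 (adjusted p = 0.0153) with the transgene, and Dble::R6/2 differed by -0.02 ± 0.08 from Hdac4HET (adjusted p = 0.899). Without the arrays high in Prl the change in Hdac4HET was 0.38 ± 0.08 with no overlap (adjusted p = 0.176), and that in R6/2 was 0.21 (adjusted p = 0.0738). The second Jarid2 probe set rose in both (0.29, adjusted p = 0.0352, and 0.40, adjusted p = 0.00127), though in Hdac4HET not without the arrays high in Prl (0.31, adjusted p = 0.189). The third was not called and had the opposite sign at -0.19 ± 0.13 with the allele (adjusted p = 0.442) and -0.365 ± 0.15 with the transgene (adjusted p = 0.0907).

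Kdm6b read 7.41 to 7.96 in WT (median 7.67), 7.72 to 8.70 in Hdac4HET (8.32), 8.00 to 8.76 in R6/2 (8.29) and 8.03 to 8.71 in Dble::R6/2 (8.32). The 3 mutant groups covered about the same range above WT, with some Hdac4HET arrays inside it. The change in Hdac4HET was 0.57 ± 0.13 (adjusted p = 0.0325) and 0.54 ± 0.155 without the arrays high in Prl (adjusted p = 0.213). Its other probe sets differed by 0.34 ± 0.15 (adjusted p = 0.193) and 0.09 (adjusted p = 0.682). The interaction was -0.58 ± 0.18, the largest of the set (unadjusted p = 0.00243, adjusted p = 0.282). Asxl1 read 8.04 to 8.40 in WT (median 8.21), 8.35 to 8.60 in Hdac4HET (8.46), 8.18 to 8.76 in R6/2 (8.56) and 8.31 to 8.96 in Dble::R6/2 (8.58). WT was again lowest, and the lowest R6/2 array was replicate 2. In Hdac4HET Asxl1 rose by 0.26 ± 0.06 (adjusted p = 0.0352), against 0.19 ± 0.07 without the arrays high in Prl (adjusted p = 0.252). Its other probe sets, at 0.01 (adjusted p = 0.952) and -0.08 (adjusted p = 0.524), were not called.

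Yaf2 read 10.79 to 11.06 in WT (median 11.02), 10.51 to 10.80 in Hdac4HET (10.62), 10.34 to 10.92 in R6/2 (10.69) and 9.92 to 10.66 in Dble::R6/2 (10.51). WT lay highest and Dble::R6/2 lowest, with overlap between neighbours. Yaf2 fell in Hdac4HET by 0.33 ± 0.06 (adjusted p = 0.0176), and differed by -0.36 ± 0.07 without the arrays high in Prl (adjusted p = 0.148). Its second probe set fell by 0.71 ± 0.14 with the allele (adjusted p = 0.0203) and by 0.65 ± 0.14 with the transgene (adjusted p = 0.00136). Second probe sets called where the brightest was not were those of Pcgf6, which rose in Hdac4HET (0.365, adjusted p = 0.0491), and Rnf2, which fell (-0.47, adjusted p = 0.0393), beside the dimmest Rbbp4 probe set. None of the dimmer probe sets of the 34 genes was called in Hdac4HET without the arrays high in Prl or without those whose Xist went against the sex label.

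**Figure D3:**
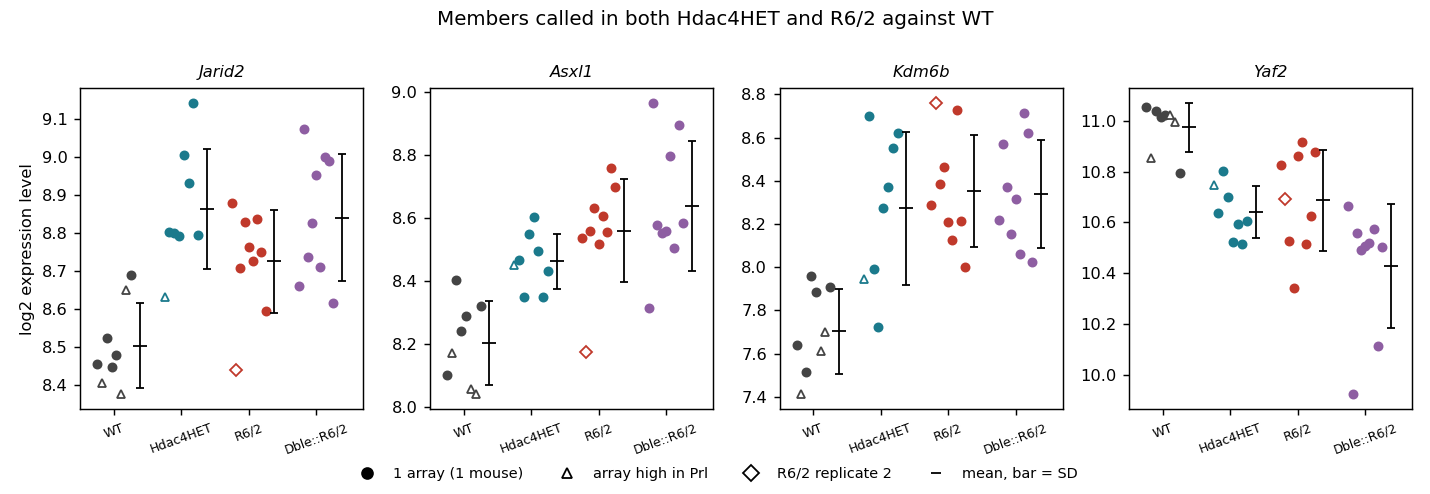
Log2 expression level (vertical axes) of the 4 genes called in both Hdac4HET and R6/2 against WT, in each of 34 mice by genotype, with mean and SD. Open triangles mark arrays high in Prl and the open diamond R6/2 replicate 2. WT lies lowest for Jarid2, Asxl1 and Kdm6b and highest for Yaf2.

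On the R6/2 background, none of the Polycomb genes passed the test for the targeted Hdac4 allele. Between Dble::R6/2 and R6/2, 0 of the 34 were called (limma, 0% of all genes and 0.00666% of all probe sets), and the methods' t-test called 0. At an unadjusted p under 0.05 (limma) there were 3, and the share of all genes at that p was not counted. Changes ran from -0.26 to 0.20 with a median of 0.00. Each of the 34 95% intervals lay within 0.5 of 0 on the log2 scale, from -0.47 to 0.47 at the extremes. Each interval is for the brightest probe set of 1 gene and is not adjusted for the number of genes. A larger change in some of the 34 is therefore not excluded. Yaf2 had the lowest value (-0.26 ± 0.10, unadjusted p = 0.0181, adjusted p = 0.848), and the others at an unadjusted p under 0.05 were Ezh1 at -0.15 ± 0.06 and Phc2 at 0.15 ± 0.06. For the genes with the largest transgene changes the differences were 0.01 ± 0.06 for Cbx7, 0.17 ± 0.13 for Phf1, -0.01 ± 0.11 for Kdm6b and -0.02 ± 0.07 for Bcor. Without R6/2 replicate 2 the difference for Phf1 was 0.05 ± 0.08 (adjusted p = 0.982), and 0 genes were called. Without the arrays whose Xist went against the sex label 0 were called as well.

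**Figure D4:**
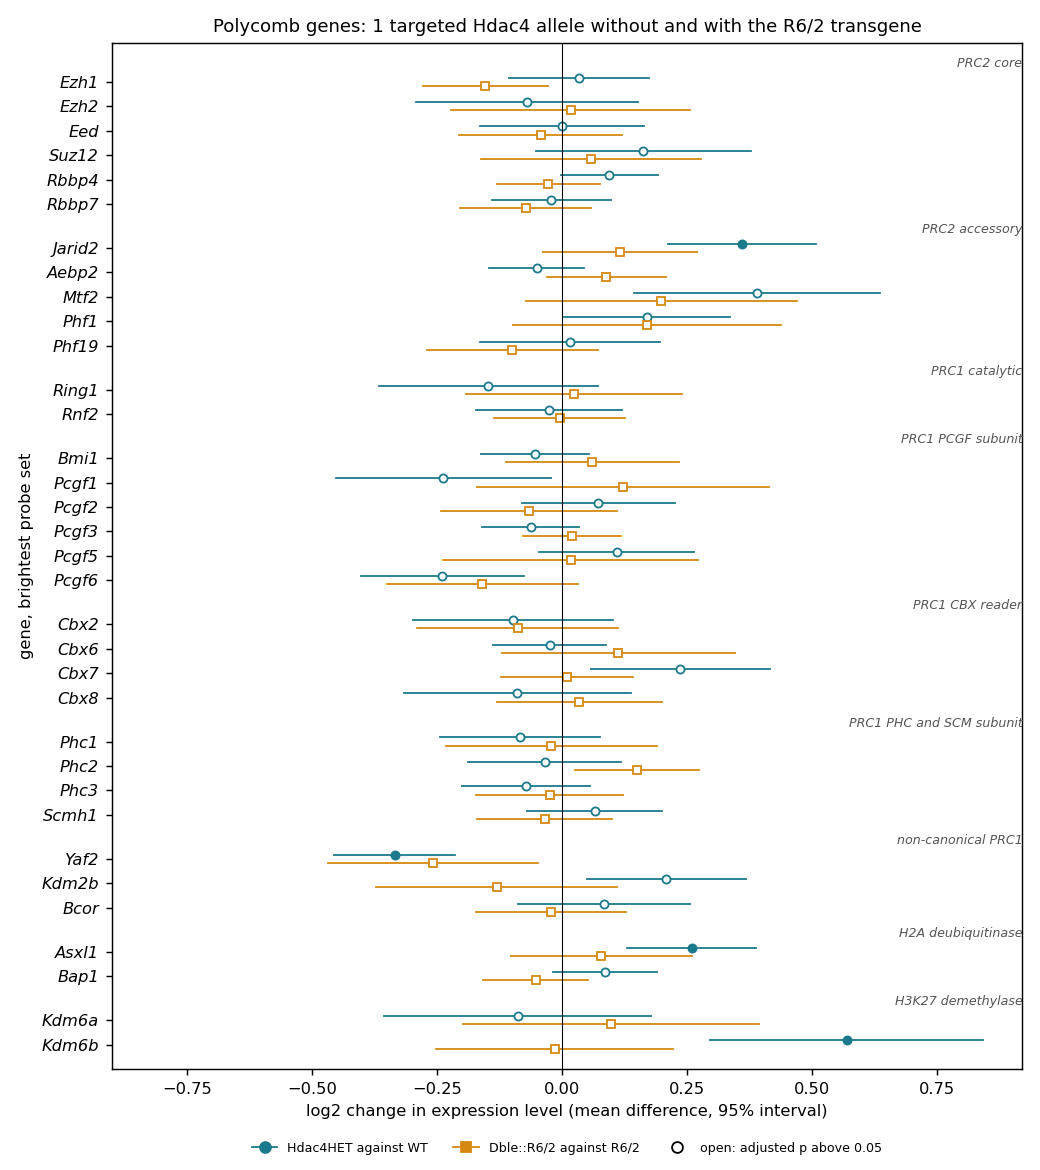
Log2 change with 1 targeted Hdac4 allele for the brightest probe set of 34 Polycomb genes, as the mean difference with its 95% interval (circles, Hdac4HET against WT; squares, Dble::R6/2 against R6/2; open, adjusted p above 0.05). The 4 filled circles are Jarid2, Yaf2, Asxl1 and Kdm6b, and every square is open.

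The other probe sets of the genes did not always follow the brightest. Of 58 such probe sets, 37 had the sign of the brightest in R6/2 against WT and 45 in Dble::R6/2 against Hdac4HET. Against WT 17 of them were called, where 26.9% of all probe sets were, 13 in the direction of the brightest and 4 opposite. Where both were called, 2 went opposite ways, in Rbbp4 and Asxl1, and in Asxl1 the dimmest was not called without R6/2 replicate 2 or without the arrays high in Prl. The 17 became 21 without R6/2 replicate 2, of which 14 were higher and 7 lower. Suz12, Pcgf2, Phc3 and Kdm6b gained 1 rise each, and Aebp2 gained 1 fall, opposite to its brightest. The 17 became 11 without the arrays high in Prl and 15 without those whose Xist went against the sex label. On the Hdac4HET background 12 were called, where 23.1% of all probe sets were, 11 in the direction of the brightest. Leaving out the arrays high in Prl gave 12 as well, and leaving out those whose Xist went against the sex label gave 6. In Hdac4HET against WT 5 were called, where 3.91% of all probe sets were. Among the genes called on the brightest in R6/2 against WT, Bmi1, Bcor, Yaf2 and Cbx6 had other probe sets that all passed in its direction. The only other probe set of Phc2 rose too, but its brightest was not called.

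**Figure D5:**
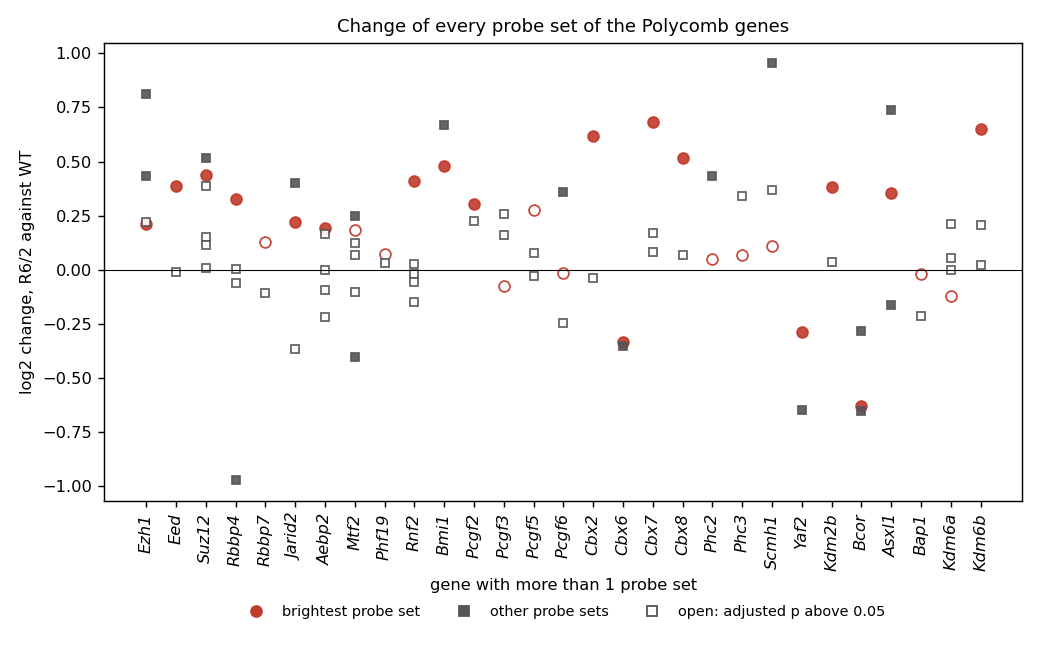
Log2 change between R6/2 and WT (vertical axis) for every probe set of the Polycomb genes that have more than 1 (circles, brightest; squares, others; open, adjusted p above 0.05). Rbbp4, Mtf2 and Asxl1 have called probe sets on both sides of 0, and the one of Asxl1 below 0 was not called without R6/2 replicate 2.

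Further Polycomb subunits and partners held some larger changes. Of 30 measured, 11 rose and 2 fell against WT and 10 rose and 1 fell on the Hdac4HET background, with a median change against WT of 0.06. Against WT 32% of all genes were called, and 45.8% of those with a mean of 6 or more, whose median change was 0.06 as well. On the Hdac4HET background these shares were 30% and 42.7%. The genes named next are those with the largest changes. Sfmbt2, which encodes a Polycomb protein with MBT repeats, rose by 1.81 ± 0.10 (adjusted p = 4.53e-10) and 1.70 ± 0.12 (adjusted p = 5.3e-09). Epop, whose product binds PRC2 and limits its activity, fell by 1.15 ± 0.08 (adjusted p = 1.38e-08) and 1.3 ± 0.10 (adjusted p = 2.04e-08). Lcor, whose locus also gives a PRC2 accessory protein, rose by 0.67 ± 0.10 (adjusted p = 6.61e-05) and 0.28 ± 0.08 (adjusted p = 0.0151). In Hdac4HET against WT 2 of the 30 rose, Lcor and Sfmbt1, where 3.17% of all genes were called, and in Dble::R6/2 against R6/2 0 were called.

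Opposing and parallel chromatin systems were counted beside the shares of all genes, 20.2% higher and 11.8% lower against WT and 18.3% higher and 11.7% lower on the Hdac4HET background. Trithorax-type genes, whose products methylate another lysine of histone H3 at active genes, rose for 10 of 18 against WT and for 11 on the Hdac4HET background, with 0 lower in either and a median of 0.21 against WT. Setd1b rose by 0.60 (adjusted p = 3.11e-05), Kmt2d by 0.56 (adjusted p = 5.01e-05) and Kmt2a by 0.405 (adjusted p = 0.0135). Other repressive writers and readers rose for 9 of 24 against WT and fell for 0, with a median of 0.19, and rose for 11 and fell for 1 on the Hdac4HET background. Among them the corepressor gene Trim28 rose by 0.49 (adjusted p = 4.98e-05), Sin3a by 0.43 (adjusted p = 0.000438) and the DNA methyltransferase gene Dnmt1 by 0.41 (adjusted p = 0.00105). In Hdac4HET against WT 2 Trithorax-type genes rose and 1 fell, and 1 of the other repressive genes rose, where 3.17% of all genes were called.

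Developmental genes described as Polycomb targets were dim on these arrays. Of 43 measured, 7 were called against WT, where 32% of all genes were, and 45.8% of those with a mean of 6 or more. The share among genes as dim as these was not counted, so the 7 cannot be read as few or many. Of these 6 rose and 1 fell, and the median change against WT was 0.02. On the Hdac4HET background 3 rose and 3 fell, where 30% of all genes were called. Shh, a secreted patterning signal, fell by 0.99 ± 0.10 (adjusted p = 6.11e-07), En2, a hindbrain homeobox gene, rose by 0.61 ± 0.14 (adjusted p = 0.00292), and Gata2, a transcription factor gene, rose by 0.50 ± 0.08 (adjusted p = 0.000215). The mean over the 43 genes ran from 4.36 to 4.55 on WT arrays and from 4.35 to 4.63 on R6/2 arrays, the highest in R6/2 replicate 2, and so lay below the level of 6 used for the brighter genes. In Hdac4HET against WT 2 rose, where 3.17% of all genes were called, and in Dble::R6/2 against R6/2 0 were called. Of 12 genes of dividing cells, 2 rose and 1 fell against WT, with array means of 4.78 to 5.02 in WT and 4.84 to 5.18 in R6/2, where replicate 2 was again highest. Mcm5 and Mcm2, which encode parts of the replication helicase, rose by 0.65 (adjusted p = 0.000362) and 0.26 (adjusted p = 0.0337), and the mitotic kinase gene Plk1 fell by 0.24 (adjusted p = 0.0065).

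Markers of brain cell types moved in the same comparisons, in which 20.2% of all genes rose and 11.8% fell against WT, and 18.3% rose and 11.7% fell on the Hdac4HET background. Cortical excitatory neuron markers, which check the labelled tissue, averaged 9.73 to 10.4 on all arrays, and 6 of 8 fell and 1 rose against WT. Their array means ran from 10.2 to 10.4 in WT, 10.2 to 10.4 in Hdac4HET, 9.83 to 10.1 in R6/2 and from 9.73 upwards in Dble::R6/2. Inhibitory neuron markers fell for 5 of 6 against WT and 6 of 6 on the Hdac4HET background, with array means of 10.4 to 10.5 in WT and 9.58 to 9.82 in R6/2. Astrocyte markers fell for 5 of 8 and rose for 1 against WT (10.3 to 10.6 in WT, at most 10.3 in R6/2), microglia markers fell for 5 of 9 (8.09 to 8.59 and 7.51 to 8.12), and oligodendrocyte markers fell for 3 of 9 (9.38 to 10.3 and 9.57 to 9.81). Endothelial and mural markers rose for 3 of 9 (7.28 to 7.72 and 7.55 to 7.76), and striatal projection neuron markers fell for 1 of 5 (7.23 to 7.97 and 6.73 to 7.77). Pituitary markers fell for 3 of 6 (4.21 to 8.13 in WT and 4.09 to 4.59 in R6/2), and epidermal markers rose for 1 of 7 (5.63 to 5.88 and 5.87 to 7.35). Their part in the Polycomb results was not tested.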

How the data were processed

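Cortex RNA of 34 mice was hybridised to Affymetrix mouse genome arrays, with 1 array per mouse. The authors checked array quality and left out chips with a high median NUSE before deposit, and the deposited values are log2 expression levels of 45037 probe sets, from 2.04 to 14.1. How the background was corrected and the arrays normalised is not given in the sources used here, and the values were used as deposited. Genotypes came from the sample labels. Probe sets were named from the platform annotation, in which 34945 had 1 symbol, 932 several and 9160 none, and 34741 probe sets were matched to RefSeq (GRCm38.p6) by gene ID. Probe sets with several symbols named no gene.

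Each pair of genotypes was fitted by itself with limma 3.58.1 (lmFit and eBayes) in R 4.3.3 without covariates, and the interaction with all 4 genotypes. P-values were adjusted over all probe sets with a threshold of 0.05. Shares of all genes use 1 probe set per gene, the brightest. Full values are given for genes called in any pairwise comparison and for Ezh1, Ezh2, Eed, Suz12, Ring1 and Rnf2, and of every other list for up to 3 called genes with the largest change. The Polycomb genes, the other lists and the alternatives were chosen with earlier results of these data known. The lists held other Polycomb subunits, Trithorax-type genes, other repressive genes, developmental Polycomb targets, and markers of dividing cells, excitatory and inhibitory neurons, astrocytes, microglia, oligodendrocytes, endothelial and mural cells, striatal neurons, pituitary and epidermis. Alternatives were quantile normalisation, a filter on dim probe sets, sex from the labels or from Xist, a replicate block, a fit of all genotypes, a gene's probe sets averaged, the methods' t-test, and leaving out arrays. Leaving out the arrays whose Xist goes against the sex label was added after the data were seen. The fit was tested on simulated data in which 200 probe sets differed. It recovered 50.7% at 1.3-fold, 76.1% at 1.5-fold and 98.5% at 2-fold for R6/2 against WT. For Dble::R6/2 against R6/2 it recovered 44.8%, 83.6% and 92.4%. The adjustment is stricter when few probe sets differ, and the real fit of R6/2 against WT called 12127 probe sets. The simulated shares therefore do not carry over to that fit. Promoter windows were searched on both strands. Figures were drawn with matplotlib 3.10.9 and pandas 2.3.3.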

Additional observations from a re-analysis of the deposited data

Results flagged for a closer look

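In 12 of 136 sets of arrays of one genotype and gene, the highest or lowest array stood apart from the others by Dixon's criterion, which chance alone gives in about 1 set of 20. R6/2 replicate 2, the array high in epidermal markers, was the array that stood apart in 9 of the 12. It read 6.62 for Ezh2, where the other R6/2 arrays lay between 5.57 and 6.09. It read 8.42 for Eed (others 7.80 to 8.05), 9.39 for Pcgf5 (others 8.31 to 8.76), 8.50 for Kdm2b (others 7.69 to 8.02) and 10.5 for Bap1 (others 10.2 to 10.4). It was low for Phf1 at 7.32 (others 8.06 to 8.56), for Cbx6 at 9.95 (others 10.8 to 11.1), for Asxl1 at 8.18 (others 8.52 to 8.76) and for Kdm6a at 7.27 (others 7.83 to 8.20). The part of the epidermal transcripts in these values was not tested.

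The other sets were Eed in WT replicate 1 at 7.27 (others 7.56 to 7.74), Phf1 in Dble::R6/2 replicate 1 at 8.00 (others 8.30 to 8.60) and Phc3 in Dble::R6/2 replicate 7 at 8.91 (others 9.11 to 9.28).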

How the results depend on the processing

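The 4 genes called in Hdac4HET against WT became 0 with Xist-based sex as a covariate, 2 with the replicate block, 1 with the mean of all probe sets, 0 without the arrays high in Prl, 0 without the 15 arrays whose Xist went against the sex label (an alternative chosen after seeing the data) and 2 by the methods' t-test. Leaving out 1 array at a time gave 2 to 6 genes, with 2 without WT replicate 1, 2, 6 or 7 or Hdac4HET replicate 2, 5, 6, 7 or 8, and 6 without WT replicate 8. None of the 4 calls held under every alternative run. The 19 calls of R6/2 against WT became 13 to 20 under the alternatives and 17 to 19 leaving out 1 array, and 9 of them held throughout. Rbbp4 reversed to -0.175 with the mean of all probe sets (adjusted p = 0.128), which follows from its dimmest probe set. With that mean Suz12 (0.27), Jarid2 (0.09), Aebp2 (0.01), Rnf2 (0.04) and Kdm2b (0.21) were no longer called. The 15 calls of Dble::R6/2 against Hdac4HET became 6 without the arrays whose Xist went against the sex label, 13 to 16 under the others and 14 to 16 leaving out 1 array, and 6 held throughout. Dble::R6/2 against R6/2 and the interaction stayed at 0 under every alternative run. Replicate numbers did not pair the arrays: same-numbered arrays correlated above 0.1 in 4 of 8 pairs for R6/2 and WT, 3 of 8 for Hdac4HET and WT, 6 of 9 for Dble::R6/2 and R6/2 (r up to 0.45) and 3 of 8 for Dble::R6/2 and Hdac4HET, with 0, 2, 3 and 1 correlating best with their own number. The replicate block gave 17 calls there and 13 for Dble::R6/2 against Hdac4HET. The number of arrays and the signal of dim probe sets limit what could be detected. In the simulation of R6/2 against WT, where only 200 probe sets differed, 50.7% of 1.3-fold changes were recovered.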
